A study of Mus musculus with 12 samples.

Results

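The 10 genes described here encode a glucose transporter, 8 enzymes of glycolysis and lactate formation, and a kinase that acts on pyruvate dehydrogenase. They are Slc2a1, Hk2, Pfkl, Aldoa, Aldoc, Pgk1, Eno1, Eno2, Ldha and Pdk1. They were taken by gene name from the array's own annotation, which gave 12 of 55681 probes and 10 of 34797 gene names. Ldha had 3 probes and each of the other genes had 1. All 12 probes were well above background on all 12 arrays, so all 10 genes were among the 17596 genes tested.

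The cells were RAW264.7, a macrophage-like mouse cell line, and RNA of the whole culture was measured on 1-colour Agilent arrays after 24 h of treatment. Palmitic acid, a saturated fatty acid, was given at 0.2 mM, and FABP4, a lipid chaperone that fat cells and macrophages make, was added to the medium as recombinant protein at 200 nM. The 4 groups of 3 arrays each were palmitic acid with FABP4, palmitic acid alone, FABP4 alone, and a control with neither. In all of them the medium held 0.5% BSA free of fatty acids, so the controls carry the carrier protein too. Nothing in the labels says that a group's 3 arrays stem from 3 cultures, so the p-values reflect the scatter among these samples alone, and this scatter may be technical. In such a culture a change in RNA per cell and a change in the share of cells that express a gene cannot be told apart.

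Each array had between 42.8% and 46.7% of its spots flagged as well above background, and 0 as saturated. All 8 macrophage markers were above background on all 12 arrays, Csf1r, Cd68 and Itgam among them, and 0 of 4 adipocyte markers were above background on any. Of markers of other cell types, 2 of 4 for neutrophils (S100a8 and Camp), 2 of 4 for T cells (Cd3e and Cd4), 1 of 3 for B cells (Cd79a) and 1 of 5 for fibroblasts (Col1a2) were above background on all 12, while Ly6g, Cd3g, Ms4a1 and Col1a1 were so on none. Their part in the results was not tested. The arrays lay on 2 slides: the 3 control arrays and FABP4 array 1 on slide 1, and the other arrays on slide 2. The comparison of palmitic acid with control therefore runs entirely across slides, while palmitic acid with FABP4 and FABP4 share slide 2 apart from FABP4 array 1.

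Glycolysis splits glucose into pyruvate in the cytosol and yields ATP without oxygen. Lactate dehydrogenase turns pyruvate into lactate, and pyruvate dehydrogenase kinase holds back the oxidation of pyruvate in the mitochondrion by switching off pyruvate dehydrogenase. Macrophages raise this pathway during inflammatory activation and in low oxygen, and many of its genes are known targets of the transcription factor HIF-1. Most steps are served by several isoenzymes, so that one isoform can change while another of the same step does not.

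Eno2, Pfkl and Pdk1 were the genes that passed the test for palmitic acid, and all of them rose. With FABP4 present, palmitic acid raised Eno2 1.99-fold, Pdk1 1.62-fold and Pfkl 1.46-fold, which is 3 of the 10 genes called higher and 0 called lower, against 2.86% of all tested genes called higher and 0.943% called lower. Without FABP4, palmitic acid raised Eno2 1.92-fold and Pfkl 1.35-fold, which is 2 of the 10 called higher and 0 lower, against 4.88% and 3.73% of all tested genes. The changes in the other genes were small: their fitted folds lay between 0.931 and 1.12 except Pdk1, which was 1.37-fold higher without FABP4 and just missed the threshold. A gene was called at an adjusted p under 0.05 in limma's linear model, with adjustment over all tested genes. The 95% interval of a log2 fold change reached 0.19 to either side for the median gene in both of these comparisons.

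**Figure D1:**
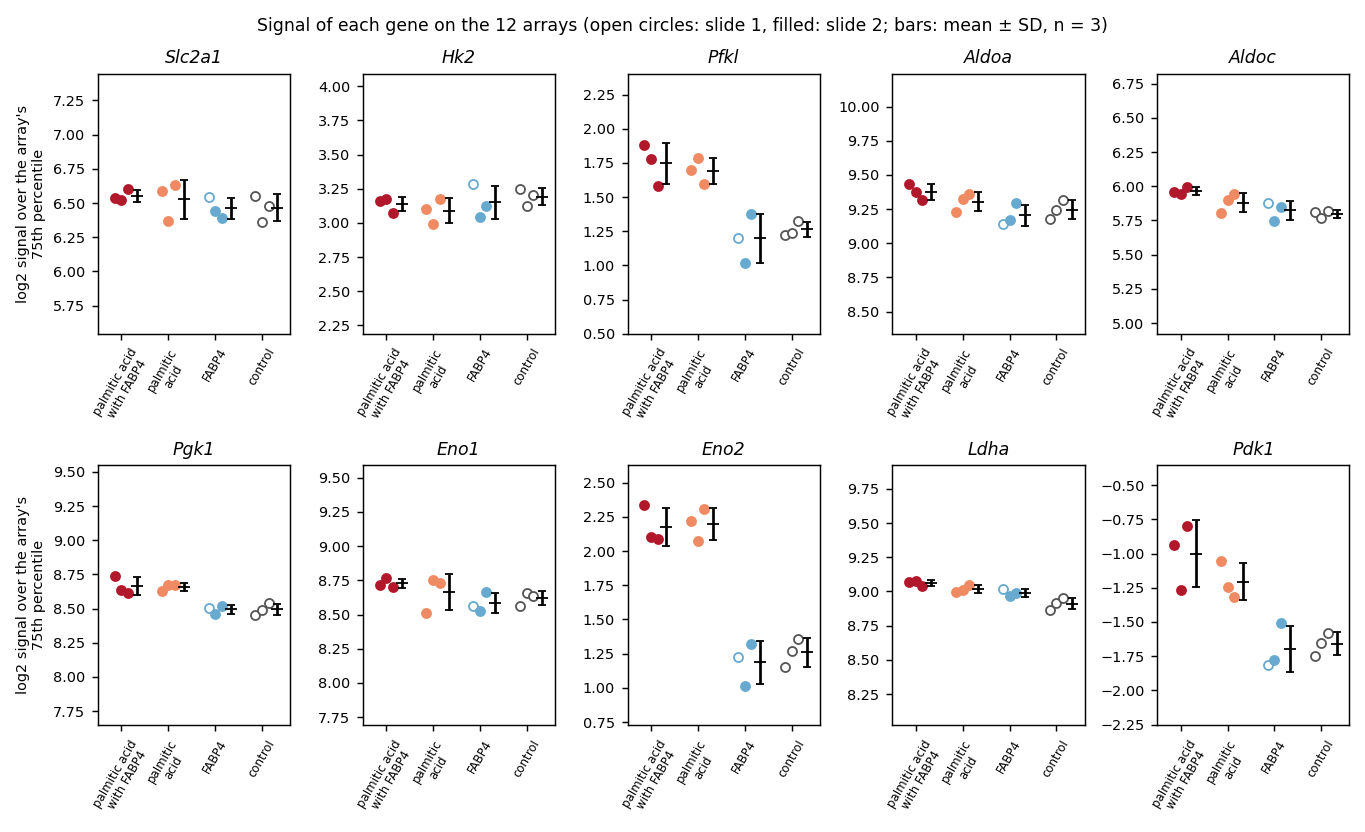
Signal of each of the 10 genes on the 12 arrays, as log2 of the signal over the array's 75th percentile (vertical axis, the same span of log2 units in each panel), by group, with the mean and SD of 3 arrays beside the points. The 6 palmitic acid arrays stand above the 6 others for Eno2, Pfkl, Pgk1 and Pdk1, whereas the groups overlap for Slc2a1 and Hk2.

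Eno2 encodes gamma-enolase, the enolase isoform best known from neurons, which carries out the step before phosphoenolpyruvate is used. The values given here are relative signals, the scanner's processed signal divided by the 75th percentile of the array's own signals. Eno2 had relative signals of 5.06, 4.30 and 4.24 with palmitic acid and FABP4, against 2.34, 2.02 and 2.50 with FABP4. It had 4.66, 4.21 and 4.95 with palmitic acid, against 2.22, 2.41 and 2.57 in controls. The lowest palmitic acid array was far above the highest array without it in both comparisons. The log2 fold change was 0.99 ± 0.10 (SE, adjusted p = 0.000787) with FABP4 present and 0.94 ± 0.10 (SE, adjusted p = 0.00117) without it. The Eno2 probe lies at chr6:124710388-124710447 on the minus strand (mm9).

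Its call held whichever of the 12 arrays was left out, in both comparisons. With slide as a fixed block, Eno2 kept a log2 fold change of 1.00 ± 0.19 (SE) without FABP4, but its adjusted p was 0.0544. Within slide 2, the palmitic acid arrays stood 1.03 log2 units above the 2 FABP4 arrays there, while on slide 1 FABP4 array 1 differed from the controls by -0.03.

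Pfkl encodes the liver-type subunit of phosphofructokinase, the committed and most tightly controlled step of glycolysis. Its relative signals were 3.68, 3.43 and 2.99 with palmitic acid and FABP4, against 2.30, 2.03 and 2.59 with FABP4. With palmitic acid they were 3.24, 3.45 and 3.02, against 2.33, 2.36 and 2.51 in controls. The groups did not overlap in either comparison, but the spread with FABP4 was wide enough for FABP4 array 3 to exceed all 3 controls. The log2 fold change was 0.55 ± 0.10 (SE, adjusted p = 0.0164) with FABP4 present and 0.43 ± 0.10 (SE, adjusted p = 0.0285) without it. The Pfkl probe lies at chr10:77450926-77450985 on the minus strand (mm9).

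Both Pfkl calls were near the threshold. Without FABP4, the call was lost on leaving out control array 1, 2 or 3 or palmitic acid array 1 or 2, with adjusted p of 0.0918, 0.0689, 0.0625, 0.0697 and 0.098 in that order. With FABP4 present, it was lost without FABP4 array 2 (adjusted p = 0.0545) and without palmitic acid with FABP4 array 1 or 2 (0.0724 and 0.0644). With slide as a fixed block, the log2 fold change without FABP4 was again 0.43, with an adjusted p of 0.323, while the change with FABP4 present kept its call. That call was lost with the arrays of slide 2 alone (adjusted p = 0.0917), with only the groups compared (0.13), with no filter on dim probes (0.0711) and with no scaling (0.14).

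Pdk1 encodes pyruvate dehydrogenase kinase 1. Its relative signals were 0.523, 0.415 and 0.576 with palmitic acid and FABP4, against 0.284, 0.292 and 0.352 with FABP4. They were 0.482, 0.422 and 0.401 with palmitic acid, against 0.298, 0.319 and 0.334 in controls. All palmitic acid arrays exceeded all arrays without it in both comparisons. The log2 fold change was 0.70 ± 0.13 (SE, adjusted p = 0.0164) with FABP4 present and 0.45 ± 0.13 (SE, adjusted p = 0.0547) without it. The difference between these changes was 0.25 (95% interval -0.15 to 0.65, adjusted p = 0.754), so a larger response with FABP4 was not shown. The Pdk1 probe lies at chr2:71739688-71739747 on the plus strand (mm9).

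With normexp in place of the scanner's own subtraction, the Pdk1 log2 change was 0.49 (adjusted p = 0.00644) with FABP4 present and 0.25 (adjusted p = 0.0781) without it. This setting also adds a constant of 50 to every signal. The processed signals of Pdk1 lay between 76.9 and 159 before scaling, and a constant of that size lowers their ratios by itself. The part of the background method in the smaller change was not tested. The Pdk1 call with FABP4 present was lost without FABP4 array 2 (adjusted p = 0.0638) and without palmitic acid with FABP4 array 1 or 3 (0.072 and 0.0583). Without FABP4, the missed call was reached on leaving out an array of the groups not compared: FABP4 array 1 or 3 (adjusted p = 0.0436 and 0.046), or palmitic acid with FABP4 array 2 or 3 (0.0314 and 0.0487). Those arrays enter through the shared estimate of the spread, and the Pdk1 fold change was the same in each of these fits. It was also reached with only the groups compared (0.0343), with only probes above background on every array (0.0465) and with no scaling (0.0247, at a log2 change of 0.63). With slide as a fixed block, the Pdk1 log2 change without FABP4 was 0.28 and its adjusted p 0.625. With FABP4 present, the call of Pdk1 held under that block and was lost with the arrays of slide 2 alone (adjusted p = 0.102), with only the groups compared (0.122), with no filter on dim probes (0.0684) and with no scaling (0.135).

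**Figure D2:**
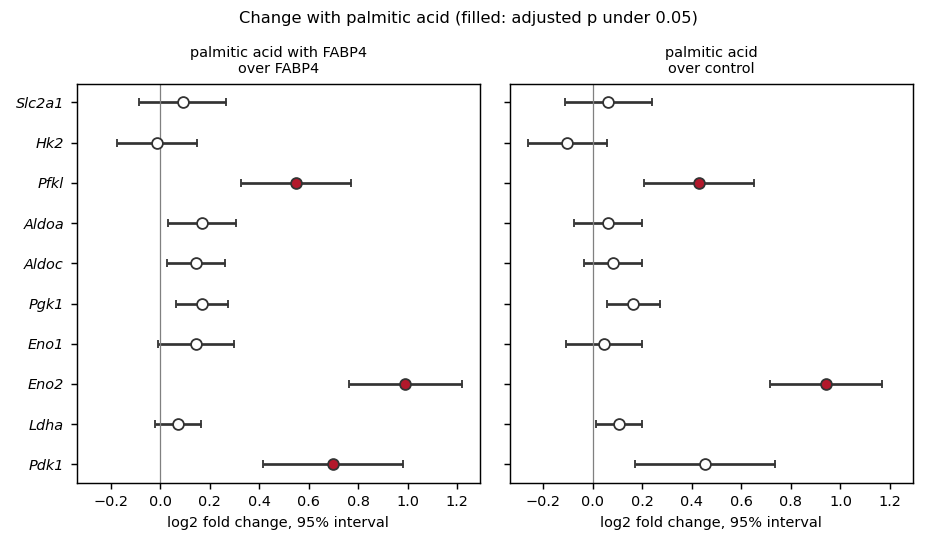
Log2 fold change of each gene with palmitic acid (horizontal axis), with FABP4 present on the left and without it on the right, with 95% intervals from limma. Filled points passed the test; Eno2 stands at 0.99 and 0.94, Pfkl at 0.55 and 0.43 and Pdk1 at 0.70 and 0.45, and the other 7 genes lie between -0.10 and 0.17.

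The sequences just upstream of the start of each gene are shown for Eno2, Pfkl and Pdk1, whose transcripts rose in at least 1 comparison, and for Ldha and Pgk1, HIF-1 targets in the textbook sense whose probes missed the threshold. Each is the 250 bases before the RefSeq start (GRCm38.p6), read in the direction of transcription. For Pdk1 and Ldha, which have more than 1 start, the one farthest upstream is given. Capitals mark ACGTG and GCGTG, the core letters that HIF-1 is known to bind, on either strand (CACGT and CACGC on the other), with overlapping matches joined.
Eno2: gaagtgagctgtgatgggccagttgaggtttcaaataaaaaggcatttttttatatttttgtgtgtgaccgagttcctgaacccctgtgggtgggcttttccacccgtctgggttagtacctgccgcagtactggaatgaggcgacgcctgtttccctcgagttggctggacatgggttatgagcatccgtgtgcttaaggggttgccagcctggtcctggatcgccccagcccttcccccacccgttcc
Pfkl: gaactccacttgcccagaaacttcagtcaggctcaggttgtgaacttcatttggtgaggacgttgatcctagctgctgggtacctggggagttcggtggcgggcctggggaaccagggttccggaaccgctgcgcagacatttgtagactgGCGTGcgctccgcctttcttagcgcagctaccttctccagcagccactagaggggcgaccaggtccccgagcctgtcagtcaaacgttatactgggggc
Pdk1: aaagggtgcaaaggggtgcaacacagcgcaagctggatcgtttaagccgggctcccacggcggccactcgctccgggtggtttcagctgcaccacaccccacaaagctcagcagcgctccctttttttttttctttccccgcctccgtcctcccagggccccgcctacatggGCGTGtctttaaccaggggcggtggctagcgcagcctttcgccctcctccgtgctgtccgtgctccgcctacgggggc
Ldha: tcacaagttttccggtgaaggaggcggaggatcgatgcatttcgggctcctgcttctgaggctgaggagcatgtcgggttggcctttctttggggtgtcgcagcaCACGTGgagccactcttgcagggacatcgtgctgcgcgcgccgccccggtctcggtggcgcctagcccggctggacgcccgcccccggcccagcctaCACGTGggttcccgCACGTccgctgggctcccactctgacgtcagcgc
Pgk1: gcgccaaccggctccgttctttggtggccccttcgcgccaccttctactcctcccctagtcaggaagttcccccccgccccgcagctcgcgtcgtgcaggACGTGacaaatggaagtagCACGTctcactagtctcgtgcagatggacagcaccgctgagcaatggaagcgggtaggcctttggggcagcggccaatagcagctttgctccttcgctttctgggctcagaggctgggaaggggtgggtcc
The windows are chr6:124769674-124769923 (minus strand) for Eno2, chr10:78009808-78010057 (minus strand) for Pfkl, chr2:71872974-71873223 (plus strand) for Pdk1, chr7:46845554-46845803 (plus strand) for Ldha and chrX:106186850-106187099 (plus strand) for Pgk1. The window of Eno2, the gene with the widest change of the 10, holds neither motif. The Pfkl and Pdk1 windows hold 1 GCGTG each, 99 and 78 bases before the start. The Ldha window holds 5 ACGTG matches, among them 2 palindromes CACGTG that count on both strands, and the Pgk1 window holds 2. Over all 10 genes, 9 have either motif in at least 1 of their windows (14 of 17 windows), and 5 have ACGTG (6 of 17 windows). Some windows of Aldoa and Eno1 overlap and share their matches. Of all 32851 RefSeq windows of this length, 38.6% hold either motif, 16.6% hold ACGTG and 6.02% hold CACGTG. Matches describe letters only, and no match says only that the letters are not in this window.

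Slc2a1 encodes GLUT1, the main glucose transporter of most cells. Slc2a1 had relative signals of 92.8, 91.7 and 97.0 with palmitic acid and FABP4, against 93.5, 87.0 and 84.0 with FABP4. It had 96.0, 82.5 and 98.9 with palmitic acid, against 93.9, 82.0 and 89.3 in controls. The groups overlap throughout. The log2 changes were 0.09 (95% interval -0.08 to 0.27) with FABP4 present and 0.06 (-0.11 to 0.24) without it.

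Hk2 encodes hexokinase 2, which traps glucose in the cell by phosphorylation. Hk2 had 8.95, 9.02 and 8.43 with palmitic acid and FABP4, against 9.73, 8.25 and 8.70 with FABP4. It had 8.58, 7.97 and 9.02 with palmitic acid, against 9.51, 8.73 and 9.21 in controls. Hk2 was the one gene of the 10 with a negative log2 change in both comparisons, -0.01 (95% interval -0.17 to 0.15) and -0.10 (-0.26 to 0.06), and its groups overlapped. That sign turned under some settings: without FABP4 the Hk2 value ranged from -0.15 to 0.10 over the alternatives.

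Aldoa and Aldoc encode aldolases, which split fructose bisphosphate. Aldoa had 691, 663 and 637 with palmitic acid and FABP4, against 566, 577 and 627 with FABP4, and the groups did not overlap. It had 600.2, 641 and 658 with palmitic acid, against 579, 605 and 638 in controls, where they did. Its log2 changes were 0.17 (adjusted p = 0.16) with FABP4 present and 0.06 (adjusted p = 0.575) without it. Aldoc had 62.2, 61.6 and 63.8 with palmitic acid and FABP4, against 58.8, 53.6 and 57.6 with FABP4. It had 55.8, 59.6 and 61.5 with palmitic acid, against 56.2, 54.5 and 56.5 in controls. The groups overlapped without FABP4 and not with it, and the log2 changes of Aldoc were 0.14 (adjusted p = 0.164) with FABP4 present and 0.08 (adjusted p = 0.363) without it.

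Pgk1 encodes phosphoglycerate kinase 1, the first ATP-yielding step. Pgk1 had relative signals of 427, 398 and 392 with palmitic acid and FABP4, against 363, 352 and 368 with FABP4. It had 395, 408 and 409 with palmitic acid, against 351.0, 359.9 and 372 in controls. The 6 palmitic acid arrays lay above the 6 others, by a small margin. The log2 changes were 0.17 ± 0.05 (SE, adjusted p = 0.0882) with FABP4 present and 0.16 ± 0.05 (SE, adjusted p = 0.0615) without it.

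The missed Pgk1 call without FABP4 was reached with quantile normalization (adjusted p = 0.0327), with the scaling percentile taken over the probes detected on every array (0.0437), with normexp background correction (0.0311), without FABP4 array 1 (0.0492) and with no scaling (0.0205, at a log2 change of 0.34). With FABP4 present, the Pgk1 log2 change was 0.06 with quantile normalization and 0.07 with no scaling. The array's annotation places the Pgk1 probe at chr3:57906830-57906894 (mm9), whereas the gene is on chromosome X in the RefSeq table. The accession given for the probe is that of Pgk1. Whether it also measures a related copy was not tested, and its values are uncertain to that extent.

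Eno1 encodes alpha-enolase, the isoform of most tissues, which serves the same step as Eno2. Eno1 had 422, 436 and 417 with palmitic acid and FABP4, against 379, 368 and 407 with FABP4. It had 366, 432 and 424 with palmitic acid, against 379, 405 and 398 in controls. Its groups overlapped without FABP4, with a log2 change of 0.04 ± 0.07 (SE), and not with FABP4 present, with 0.14 ± 0.07 (SE, adjusted p = 0.264). The intervals of Eno1 end at 0.20 and 0.30, well under the lower ends for Eno2, 0.71 and 0.76. The accession of Eno1 is also cited by 2 probes named Gm5506, a near-identical copy, whose log2 changes were 0.14 and 0.01 with FABP4 present, and 0.04 and 0.08 without it, and the signals of Eno1 and the copy were not separated here.

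Ldha encodes the A subunit of lactate dehydrogenase, the muscle-type form that favours lactate formation. By its brightest probe, Ldha had 538, 540.1 and 526 with palmitic acid and FABP4, against 518, 499 and 508 with FABP4. It had 511, 515 and 529 with palmitic acid, against 467, 484 and 495 in controls. Both pairs of groups were apart, by a few percent. The log2 changes were 0.07 ± 0.04 (SE, adjusted p = 0.337) with FABP4 present and 0.11 ± 0.04 (SE, adjusted p = 0.136) without it.

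The other 2 Ldha probes gave log2 changes of 0.09 and 0.06 with FABP4 present. Without FABP4 they gave 0.19 (unadjusted p = 0.0158) and 0.17 (unadjusted p = 0.00675); adjusted over all probes these p-values were 0.106 and 0.0679. All 3 probes had the same sign in both comparisons under the scaling used here. With FABP4 present, that sign turned for the brightest probe under other scalings. Its log2 change was -0.05 with quantile normalization and -0.02 with no scaling. In controls, array 1 was the lowest on each of the 3 probes.

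**Figure D3:**
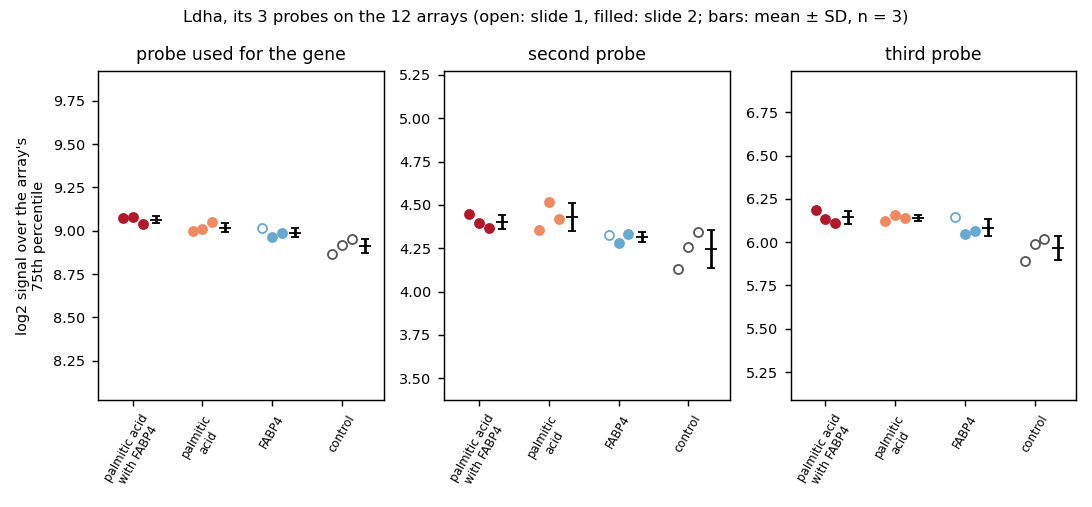
The 3 Ldha probes on the 12 arrays by group, as log2 of the signal over the array's 75th percentile (vertical axis), with the mean and SD of 3 arrays. The lowest of the 12 values is a control array on each probe, and the log2 changes with palmitic acid over control are 0.11, 0.19 and 0.17.

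With Ldha taken by its brightest probe, the palmitic acid arrays lay wholly above their comparison group for 8 of the 10 genes with FABP4 present. These were all but Slc2a1 and Hk2, against 19.3% of all tested genes. Without FABP4 this held for 5 of the 10, Pfkl, Pgk1, Eno2, Ldha and Pdk1, against 17.5%. The median log2 change of the 10 genes was 0.16 with FABP4 present, where that of all tested genes was 0.05, and 0.09 without FABP4, where that of all genes was 0.00054. These comparisons have no arrays in common, but the arrays were fitted together. The smaller changes with FABP4 present depended on the scaling. With quantile normalization, Slc2a1, Aldoa, Aldoc, Pgk1 and Eno1 lay at 0.01, 0.06, 0.06, 0.06 and 0.04, and Hk2 and Ldha at -0.05 each. Eno2, Pdk1 and Pfkl lay at 0.97, 0.70 and 0.53 there, and the median of all tested genes was 0.01.

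No gene of the 10 passed the test for FABP4, whether palmitic acid was present or not. With palmitic acid present, 0 of the 10 genes were called, against 0% of all tested genes (0 of 17596; 1034 genes, 5.88%, had an unadjusted p under 0.05 in limma). Without palmitic acid, 0 of the 10 were called, against 0.017% (3 genes, with 1273 genes or 7.23% under an unadjusted p of 0.05). The largest fitted change was that of Pdk1 with palmitic acid present, 0.21 on the log2 scale (95% interval -0.08 to 0.49), with overlapping groups. For Eno2 the changes were -0.02 (-0.25 to 0.20) and -0.07 (-0.30 to 0.16), and for Pfkl 0.05 (-0.17 to 0.28) and -0.07 (-0.29 to 0.16).

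FABP4 arrays lay wholly above controls for Ldha alone among the 10 genes, with a log2 change of 0.08 (adjusted p = 0.751), against 4.01% of all genes. That is by its brightest probe, and on another Ldha probe the groups overlapped (20.1, 19.4 and 20.1 against 17.5, 19.1 and 20.3). With palmitic acid present, Aldoc alone had its FABP4 arrays wholly above, with 0.09 (adjusted p = 0.815), against 11.4%. Intervals that include 0 do not show that FABP4 had no effect: they leave changes of up to 0.49 for Pdk1 and up to 0.30 in size for the other 9 genes. The interaction, the palmitic acid change with FABP4 minus that without it, was called for 0 of the 10 genes and 0% of all genes (1218 genes, 6.92%, under an unadjusted p of 0.05). It lay between -0.03 for Ldha and 0.25 for Pdk1.

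**Figure D4:**
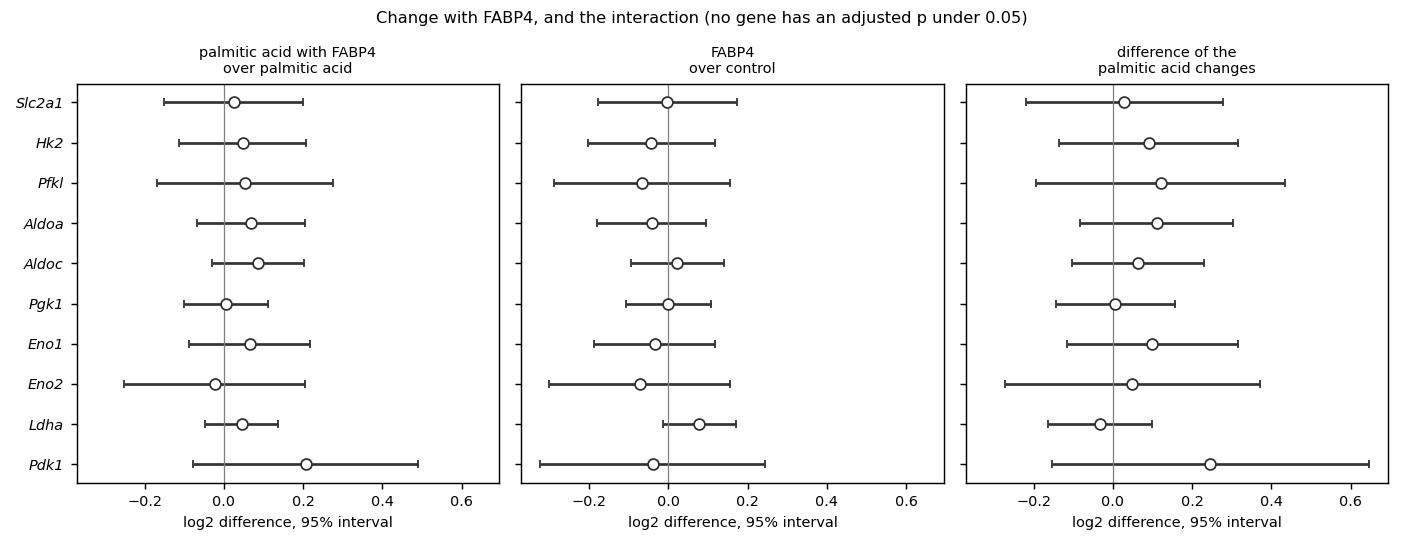
Log2 differences of each gene with FABP4 when palmitic acid was present (left), with FABP4 alone over control (middle), and the interaction (right), with 95% intervals from limma on the horizontal axis. Every interval includes 0, and the widest, that of Pdk1 in the interaction, spans -0.15 to 0.65.

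Of 13 other tested enzymes of glycolysis, 2 rose with palmitic acid in the presence of FABP4, 2 rose in its absence, and 0 fell in either. The shares of all tested genes called higher were 2.86% with FABP4 present and 4.88% without it. Hk3, the hexokinase typical of myeloid cells, rose in both: it had 17.7, 18.9 and 19.3 with palmitic acid and FABP4, against 13.53, 13.46 and 13.97 with FABP4. It had 18.5, 19.8 and 19.0 with palmitic acid, against 12.6, 13.3 and 12.9 in controls. Its log2 changes were 0.45 ± 0.05 (SE, adjusted p = 0.00121) and 0.56 ± 0.05 (SE, adjusted p = 0.000284). Hk3 stayed called with slide as a fixed block (adjusted p = 0.00427 and 0.0322) and whichever array was left out. With no scaling, its call with FABP4 present was lost (adjusted p = 0.14).

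Pgam1, a phosphoglycerate mutase, rose by 0.22 on the log2 scale with FABP4 present (adjusted p = 0.0332), a call that leaving out any of 7 of the 12 arrays ended, with adjusted p of up to 0.131. Pgam2, the muscle-type mutase, rose by 0.40 without FABP4 (adjusted p = 0.00714), and its adjusted p was 0.112 with slide as a fixed block. Gapdh, Gpi1, Pkm2 and Pfkp did not pass in either comparison, with log2 changes between 0.00 and 0.21. The median over the 13 genes was 0.12 with FABP4 present and 0.05 without it.

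Around the pathway, 6 of 12 further hexose transporters on the array were tested and 0 were called for palmitic acid. Slc2a3 (GLUT3) was among those tested, with log2 changes of -0.06 and 0.00. Of 14 tested genes of pyruvate and lactate fate, 1 rose in each comparison and 0 fell, beside 2.86% and 4.88% of all tested genes called higher. A single call in a list this small says little about the list. The called gene was Slc16a3, the lactate exporter MCT4, with 67.4, 61.9 and 60.7 with palmitic acid and FABP4, against 44.7, 44.8 and 51.3 with FABP4. With palmitic acid it had 56.7, 62.4 and 62.3, against 46.4, 44.5 and 49.9 in controls. The log2 changes of Slc16a3 were 0.43 (adjusted p = 0.0124) and 0.37 (adjusted p = 0.0169), and its second probe gave 0.46 and 0.33.

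The Slc16a3 call without FABP4 was lost without control array 1 or 2 or palmitic acid array 2 or 3 (adjusted p of up to 0.0638), and with slide as a fixed block (0.401). With FABP4 present it was lost without FABP4 array 2 or without palmitic acid with FABP4 array 1 (up to 0.0599). It was also lost there with the arrays of slide 2 alone (0.0744), with only the groups compared (0.0953) and with no scaling (0.135). With no filter on dim probes, the Slc16a3 call was lost both with FABP4 present (0.0611) and without it (0.0686). Of 14 regulators of glycolytic flux on the array, such as the bifunctional Pfkfb enzymes, 10 were tested and 0 were called for palmitic acid. Of 17 tested genes of glycogen and the pentose phosphate pathway, 1 rose in each comparison and 0 fell, beside the same 2.86% and 4.88%. Here too a single call says little about the list. The called gene was Pgm2, a phosphoglucomutase that links glycogen to glycolysis, which rose by 0.50 (adjusted p = 0.00518) and 0.46 (adjusted p = 0.00564). With slide as a fixed block the adjusted p of Pgm2 was 0.0159 with FABP4 present and 0.144 without it. The Pgm2 call with FABP4 present was lost with the arrays of slide 2 alone (0.0539) and with only the groups compared (0.0811).

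Of 13 tested targets of the hypoxia response outside glucose metabolism, 7 rose with palmitic acid in the presence of FABP4 and 8 in its absence. In both comparisons 0 fell. Over all tested genes, 2.86% and 4.88% were called higher, and 0.943% and 3.73% lower. The 13 include Hilpda, a lipid droplet protein, so they are not all outside lipid metabolism. Its log2 changes were 1.41 (adjusted p = 7e-07) and 1.44 (adjusted p = 6.35e-07). With slide as a fixed block, 4 of the 8 calls were lost without FABP4, those of Bnip3l, Vegfa, Adm and Ankrd37 (adjusted p of 0.112, 0.153, 0.121 and 0.208), and that of Adm with FABP4 present (0.0813). Leaving out any of 7 of the 12 arrays also ended the Adm call with FABP4 present (adjusted p of up to 0.126). Adm was well above background on only 2 of the 3 control arrays. Its relative signals there were 0.083, 0.097 and 0.102, so its change over control rests on signals near background. The Vegfa call with FABP4 present was lost without FABP4 array 2 or palmitic acid with FABP4 array 1 or 2 (up to 0.0701), and the Ero1l call without FABP4 was lost without control array 1 or 2 or palmitic acid array 1 or 3 (up to 0.0579). Bnip3l, a mitophagy receptor, rose by 0.42 (adjusted p = 0.00658) and 0.39 (adjusted p = 0.00661). Ankrd37 rose by 0.83 without FABP4 (adjusted p = 0.0142, and 0.0519 without control array 1), and Ddit4, an inhibitor of mTORC1, by 0.78 with FABP4 present (adjusted p = 0.0156). The Ddit4 call was lost without FABP4 array 2 or any 1 of the 3 arrays of palmitic acid with FABP4 (adjusted p of up to 0.0596). It was also lost with the arrays of slide 2 alone (0.0575), as were the calls of Vegfa (0.0725) and Adm (0.145) with FABP4 present. With only the groups compared, the calls of Bnip3l, Vegfa, Adm and Ddit4 with FABP4 present were lost (0.0516, 0.0634, 0.175 and 0.132). With no scaling, those of Bnip3l, Vegfa and Adm were lost (0.1, 0.295 and 0.0954). With no filter on dim probes, those of Vegfa, Adm and Ddit4 were lost (0.0803, 0.126 and 0.0649). Without FABP4, Ddit4 changed by 0.34 and was not called (adjusted p = 0.162). Its relative signals were 37.5, 38.5 and 39.0 with palmitic acid and FABP4, and 36.6, 35.8 and 40.1 with palmitic acid. They were 17.8, 21.6 and 28.8 with FABP4, and 27.7, 29.5 and 32.0 in controls. A larger Ddit4 response with FABP4 was not shown (interaction 0.45, adjusted p = 0.713). Of 10 genes of oxygen sensing itself on the array, 6 were tested, subunits of HIF among them, and 0 were called. None of the 7 lists had a gene called for FABP4 in either comparison.

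**Figure D5:**
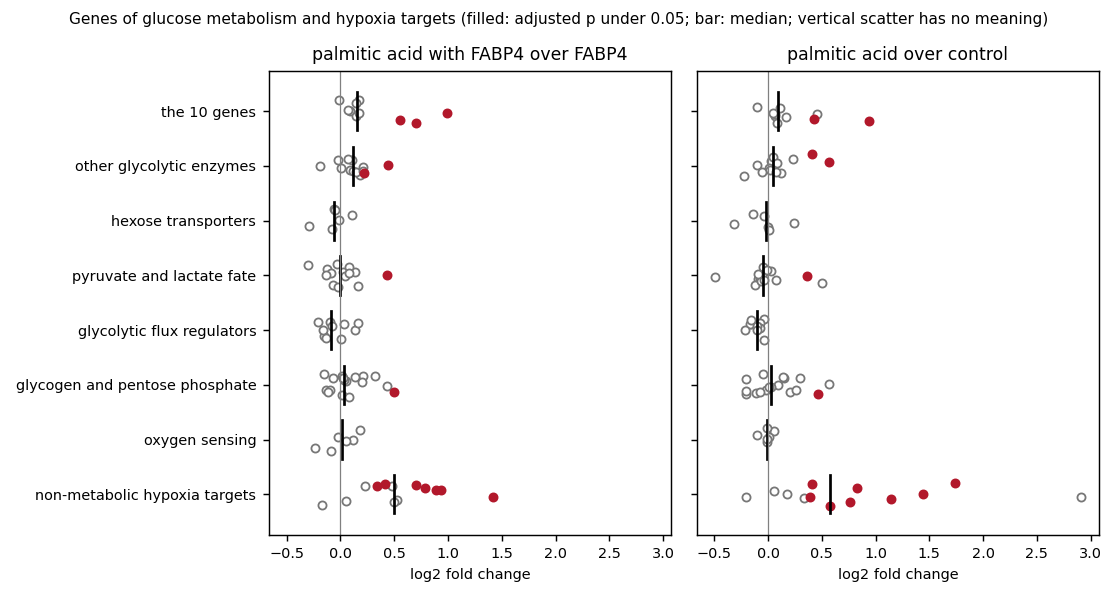
Log2 fold changes with palmitic acid (horizontal axis) of the 10 genes and of the tested genes of 7 related lists, with FABP4 present on the left and without it on the right; filled points passed the test and bars are medians. Calls are 3 and 2 among the 10 genes, 2 and 2 among 13 other glycolytic enzymes, and 7 and 8 among 13 hypoxia targets. Of all tested genes, 2.86% and 4.88% were called higher. The point at 2.91 is P4ha2, which did not pass.

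The genes whose pattern over the 12 arrays lay closest to that of Eno2, by the root mean square difference of log2 values after each gene's own mean was removed, were Bnip3 (0.10) and Sphk1 (0.12), beside 1 probe without a gene name (0.10). Bnip3 encodes a mitochondrial death and mitophagy protein and Sphk1 a sphingosine kinase. The distances compare with an SD of 0.52 for Eno2 over the arrays. Closest to Pfkl (SD 0.28) were Ppfia3 (0.08) and Pgm2 (0.09). Closest to Pdk1 (SD 0.34) were Arrb1 (0.12), Serpinb6b (0.12) and Padi2 (0.14). These genes were picked for their likeness, over arrays of all 4 groups, and share with the 3 genes the higher values of the palmitic acid arrays.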

How the data were processed

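Per the labels' protocols, 50 ng of RNA per array was labelled with Cy3. Agilent Feature Extraction 10.7.3.1 quantified the spots, per the file headers. The deposited intensity values are background-subtracted, linear and not scaled between arrays, and the value table that the authors deposited equals them within 0.005. Further steps of the authors are not given in the sources used here. Groups came from the labels.

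Without control spots (59305 spots remained per array) and outliers, the spots of each probe were averaged. Values were log2 intensities minus the array's 75th percentile. A probe was tested where all 3 arrays of some group had it well above background, which held for 23911 probes, and each of the 17596 genes was represented by its brightest one. The model had 4 group means over the 12 arrays, fitted in limma 3.58.1 (lmFit and eBayes, two-sided) under R 4.3.3, and p-values were adjusted over all genes by Benjamini-Hochberg. The code was tested on simulated data. The number of arrays limits the precision.

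The 10 genes and the 7 lists were chosen with earlier results of these data known. The genes named are the 10, the list genes that were called, and the 3 genes closest in pattern to each called member. Gapdh, Gpi1, Pkm2, Pfkp, Slc2a3 and P4ha2 were chosen after their values were seen, and not every gene the rule names is reported here. Accessions of all 12 probes matched the RefSeq table. Probe positions are those of the array's annotation (mm9), exon or UTR location was not analysed here, and promoters are from RefSeq (GRCm38.p6). Alternatives were other scalings, background correction, filters, probe rules, slide and replicate blocks, the groups compared alone, and leaving out each array. Plots were made in matplotlib 3.10.9 (Python 3.11.15).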

Additional observations from a re-analysis of the deposited data

How the results depend on the processing

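Eno2, Pfkl and Pdk1 kept their direction under all alternatives for palmitic acid, with log2 changes of Eno2 between 0.89 and 1.11 without FABP4 and between 0.89 and 1.06 with it. Without FABP4, the counts of genes called higher and lower, 858 and 657, became 2945 and 110 with no scaling (6 of the 10 genes higher, with Aldoc, Pgk1, Ldha and Pdk1 added, where all genes shifted by 0.17), 306 and 207 with no filter on dim probes (1 of the 10), 78 and 60 with slide as a fixed block (0), and 135 and 56 with slide as a random block (1, Eno2). With FABP4 present, 504 and 166 became 67 and 92 with no scaling (1), 143 and 42 with no filter (1), 216 and 44 on slide 2 alone (1, Eno2), and 74 and 20 with only the groups compared (1). Genes called lower were 329 with quantile normalization, 409 with the scaling percentile taken over the probes detected on every array and 101 with slide as a fixed block. The deviations of 18 same-numbered pairs of arrays correlated between -0.08 and 0.17, with 1 over 0.1. No pairing by number was seen, but low correlations cannot settle whether same-numbered arrays were handled together. A replicate block left 1 of the 10 genes called without FABP4 (Eno2, Pfkl having an adjusted p of 0.0542) and 299 and 109 genes with FABP4 present.

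For FABP4 without palmitic acid, 2 genes higher and 1 lower became 20 and 83 with slide as a fixed block. Of the other alternatives that keep all 12 arrays or the groups compared, those that moved either count gave 0. For FABP4 with palmitic acid, testing every probe called 1 lower. For the interaction, no scaling called 3 lower, and slide as a fixed block called 33 higher and 4 lower. None of these were among the 10 genes.

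Leaving out 1 array gave 382 to 1593 genes higher and 245 to 1123 lower for palmitic acid without FABP4 (1 to 4 of the 10), and 186 to 487 higher and 61 to 162 lower with FABP4 present (1 to 3). It gave 0 to 56 higher and 0 to 3 lower for FABP4 without palmitic acid, 0 to 2 higher with palmitic acid, and 0 to 2 higher and 0 to 5 lower for the interaction. The causes were not tested. Signals of all 12 probes were well above background. With normexp and its added constant of 50, the log2 change of Pdk1 was 0.25 without FABP4 and 0.49 with it, against 0.45 and 0.70.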
